A study of Caenorhabditis elegans with 9 samples.

Results

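The 9 genes described here form the route from the insulin receptor to the transcription factor DAF-16 in Caenorhabditis elegans: daf-2, ist-1, age-1, daf-18, pdk-1, akt-1, akt-2, sgk-1 and daf-16. They were taken by symbol from a table of read counts with 45461 entries, each symbol matched exactly 1 row, and all 9 passed the filter on low counts that left 13985 genes for testing. Whole adult worms were collected 48 hours after the fourth larval stage from agar plates of 3 kinds, which held nicotinic acid, 1-methylnicotinamide (MNA) or, as control, only water, with 3 libraries for each. Nicotinic acid is a B vitamin from which cells make NAD, and MNA arises when nicotinamide is methylated. The sources give nicotinic acid as 1 mM in the sample labels and as 1 nM in the treatment protocol, and MNA as 1 µM, so whichever is right, the compounds were given at unequal doses. No strain, mutation or transgene is named for any group, and the agar of all plates came from a common batch.

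Insulin-like peptides bind DAF-2, the only insulin and IGF-1 receptor homologue of the worm, and the receptor, in part through the adaptor IST-1, activates the phosphatidylinositol 3-kinase AGE-1. The lipid it makes recruits PDK-1 and the kinases AKT-1 and AKT-2 to the membrane, and the phosphatase DAF-18 removes that lipid. AKT-1 and AKT-2 phosphorylate the FOXO factor DAF-16 and keep it out of the nucleus, while SGK-1 is a related kinase with its own roles in growth, stress and lifespan. Low signalling in this route extends worm lifespan and favours the dauer larva. Most of this control acts on protein phosphorylation and location, which RNA counts do not measure.

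The libraries held 18501261 to 31247605 counts, so that 3 counts, used as the detection floor, came to a level of 0.096 to 0.1622 CPM (counts scaled to a common library total). The 9 genes lay far above it, with 131 to 26868 counts in any library. On the second principal component of all tested genes MNA replicate 3 lay at 4.5, apart from MNA replicates 1 and 2 at 22.8 and 25. The first component set nicotinic acid replicate 1 at 24.1, apart from replicates 2 and 3 at 3.2 and 0.9. Among fixed tissue markers, the summed level of 11 sperm genes was 1.99 to 3.38 CPM in the controls, 9.04 to 26 CPM under nicotinic acid and 3.45 to 5.81 CPM under MNA. The summed level of 10 muscle genes was 3002 to 3220, 3249 to 3962 and 2972 to 3468 CPM, and that of 12 germ line and oocyte genes was 10750 to 12006, 10240 to 10896 and 10427 to 11643 CPM, in the same order. Neurons (10 genes) stood at 328 to 366, 345 to 394 and 368 to 393 CPM, epidermis (10 genes) at 418 to 473, 475 to 605 and 503 to 534 CPM, intestine (9 genes) at 23395 to 26707, 19066 to 24688 and 21495 to 22484 CPM, and early embryo (10 genes) at up to 17.6, 17 and 21.7 CPM. Of all these markers only hlh-1, a muscle transcription factor gene placed here in the early embryo list, was listed at 0 in every library, and the reason was not tested. A sum follows its most abundant genes, such as vit-2 of the intestine list at a mean of 15575 CPM, and its members can differ. Of the 10 epidermis genes only 5 had a log2 fold change above 0 under nicotinic acid, with a median of 0.092. In 2 other lists the tested members moved together under nicotinic acid. All 10 muscle genes were above 0 (median 0.248), and 3 passed the edgeR test as higher. All 7 tested sperm genes were above 0 (median 3.068), and 6 passed as higher, where 1.94% of all tested genes did. Leaving out 1 library could bring either count of calls to 0. The sums alone do not measure tissue composition, and the part of tissue composition in the values below was not tested.

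The RNA of the 9 genes stood at very different levels. Per kilobase of exon, daf-18 was the most abundant at 268 ± 14.5 CPM per kb (SD, n = 9), followed by akt-1 at 108 ± 4.34, daf-16 at 50 ± 2.14 and age-1 at 39.2 ± 1.32 CPM per kb. The receptor gene daf-2 followed at 23.9 ± 2.25 CPM per kb, then sgk-1 at 13.8 ± 1.3, pdk-1 at 9.95 ± 0.819, akt-2 at 4.58 ± 0.506 and ist-1 at 1.79 ± 0.228 CPM per kb. The step from the most to the least abundant was 150-fold. No neighbours in this order overlapped in their ranges over the 9 libraries, and the order was the same in 9 of 9 libraries; the closest neighbours were daf-16 and age-1, at a ratio of 1.28. Against 11456 tested genes with an exon length, whose median was 8.53 CPM per kb, daf-18 stood at percentile 97.2, akt-1 at 92.3, daf-16 at 80.9, daf-2 at 65.9 and ist-1 at 26.2. Exon lengths came from a current annotation, which may differ from the gene models the reads were counted on, so an order that rests on a small ratio depends on those lengths.

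**Figure D1:**
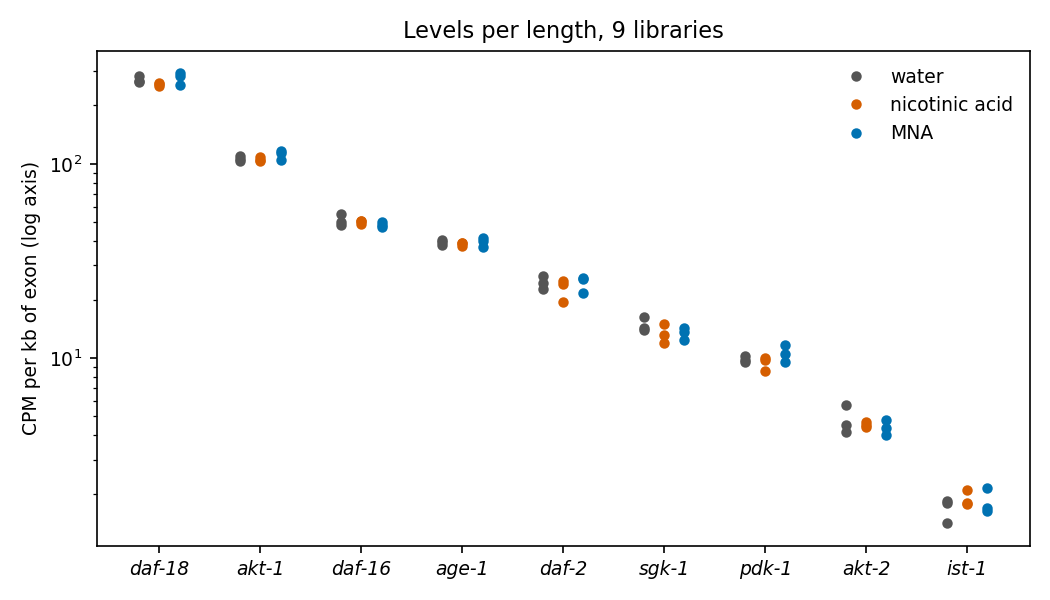
Level of each gene in CPM per kilobase of exon on a log axis, with 1 point per library and the groups side by side (water, nicotinic acid, MNA). The genes are ordered from daf-18 at 268 to ist-1 at 1.79 CPM per kb, and the differences between groups are small against those between genes. The groups overlap within each gene except daf-18, whose nicotinic acid libraries (253 to 261 CPM per kb) lie below the controls (263 to 283 CPM per kb).

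The receptor and its adaptor came first. The level of daf-2 (Y55D5A.5) was 221, 202 and 189 CPM in the control libraries, 162, 207 and 199 CPM under nicotinic acid and 212, 214 and 179 CPM under MNA. Nicotinic acid replicate 1 was the lowest of the 9 and control replicate 1 the highest, and the groups overlapped. The log2 fold change was -0.11 for nicotinic acid (95% interval -0.33 to 0.12, edgeR adjusted p = 0.64) and -0.02 for MNA (95% interval -0.24 to 0.21, edgeR adjusted p = 0.957). In a whole animal, fewer cells of a type and less RNA per cell cannot be told apart, for daf-2 or for the genes that follow. The insulin receptor substrate homologue ist-1 (C54D1.3) had 7.28, 5.58 and 7.1 CPM in the controls, 7.1, 7.01 and 8.27 CPM under nicotinic acid and 6.41, 6.65 and 8.55 CPM under MNA. The treated groups each held 1 library above all controls, nicotinic acid replicate 3 and MNA replicate 3, and the groups overlapped. Its log2 fold change was 0.17 for nicotinic acid (95% interval -0.15 to 0.49, edgeR adjusted p = 0.606) and 0.12 for MNA (95% interval -0.2 to 0.43, edgeR adjusted p = 0.754), the widest intervals of the 9 genes.

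The kinase and the phosphatase of the lipid signal were steadier. The level of age-1 (B0334.8), the catalytic subunit of phosphatidylinositol 3-kinase, was 156, 160 and 150 CPM in the controls, 148, 153 and 154 CPM under nicotinic acid and 162, 157 and 147 CPM under MNA. All groups overlapped, and the highest library was only 1.1 times the lowest. The log2 fold change was -0.03 for nicotinic acid (95% interval -0.14 to 0.07, edgeR adjusted p = 0.773) and 0.00 for MNA (95% interval -0.1 to 0.11, edgeR adjusted p = 0.986). The opposing phosphatase gene daf-18 (T07A9.6) was at 891, 943 and 877 CPM in the controls, 843, 869 and 855 CPM under nicotinic acid and 941, 976 and 847 CPM under MNA. All 3 nicotinic acid libraries lay below all 3 controls, while the MNA libraries lay on both sides of them. The difference for nicotinic acid was small and did not pass the test (log2 fold change -0.08, 95% interval -0.21 to 0.05, edgeR adjusted p = 0.556). For MNA the daf-18 value was 0.03 (95% interval -0.11 to 0.16, edgeR adjusted p = 0.876).

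Next came the kinases below the lipid signal. The level of pdk-1 (H42K12.1), whose product activates the AKT kinases, was 24.6, 23.1 and 23.6 CPM in the controls, 20.8, 24.3 and 23.8 CPM under nicotinic acid and 25.5, 28.1 and 23.1 CPM under MNA. The lowest was nicotinic acid replicate 1 and the highest MNA replicate 2, and the groups overlapped. Its log2 fold change was -0.05 for nicotinic acid (95% interval -0.24 to 0.13, edgeR adjusted p = 0.805) and 0.10 for MNA (95% interval -0.08 to 0.29, edgeR adjusted p = 0.583).

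The AKT genes differed far more from each other than between groups. The level of akt-1 (C12D8.10) was 242, 250 and 236 CPM in the controls, 248, 239 and 237 CPM under nicotinic acid and 263, 260 and 240 CPM under MNA. MNA replicates 1 and 2 were the highest of the 9, and MNA replicate 3 lay within the controls. The log2 fold change of akt-1 was -0.01 for nicotinic acid (95% interval -0.12 to 0.1, edgeR adjusted p = 0.961) and 0.07 for MNA (95% interval -0.04 to 0.17, edgeR adjusted p = 0.532). Its paralog akt-2 (F28H6.1) had 13.7, 9.88 and 10.7 CPM in the controls, 10.6, 11.1 and 10.8 CPM under nicotinic acid and 9.53, 10.4 and 11.5 CPM under MNA. Control replicate 1 stood above every other library, and the remaining 8 fell between 9.53 and 11.5 CPM. For akt-2 the log2 fold change was -0.08 under nicotinic acid (95% interval -0.35 to 0.19, edgeR adjusted p = 0.801) and -0.12 under MNA (95% interval -0.39 to 0.14, edgeR adjusted p = 0.666). The related kinase gene sgk-1 (W10G6.2) was at 26.6, 22.9 and 23.2 CPM in the controls, 24.4, 19.6 and 21.4 CPM under nicotinic acid and 23.2, 20.3 and 22.2 CPM under MNA. Control replicate 1 was again the highest, nicotinic acid replicate 2 the lowest, and the groups overlapped. The sgk-1 log2 fold change was -0.15 for nicotinic acid (95% interval -0.35 to 0.06, edgeR adjusted p = 0.454) and -0.14 for MNA (95% interval -0.35 to 0.06, edgeR adjusted p = 0.468). How reads shared between these related kinase genes were assigned is not given in the sources used here.

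The transcription factor gene daf-16 (R13H8.1) closed the route with 202, 179 and 184 CPM in the controls, 180, 187 and 186 CPM under nicotinic acid and 179, 184 and 175 CPM under MNA. Control replicate 1 was the highest library, and the remaining 8 lay between 175 and 187 CPM. Its log2 fold change was -0.03 for nicotinic acid (95% interval -0.14 to 0.08, edgeR adjusted p = 0.812) and -0.07 for MNA (95% interval -0.18 to 0.04, edgeR adjusted p = 0.52). In fold, the daf-16 intervals ran from 0.906 to 1.06 for nicotinic acid and from 0.882 to 1.03 for MNA. The counts join all daf-16 isoforms, which differ in their roles, so a shift between isoforms would not be seen.

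**Figure D2:**
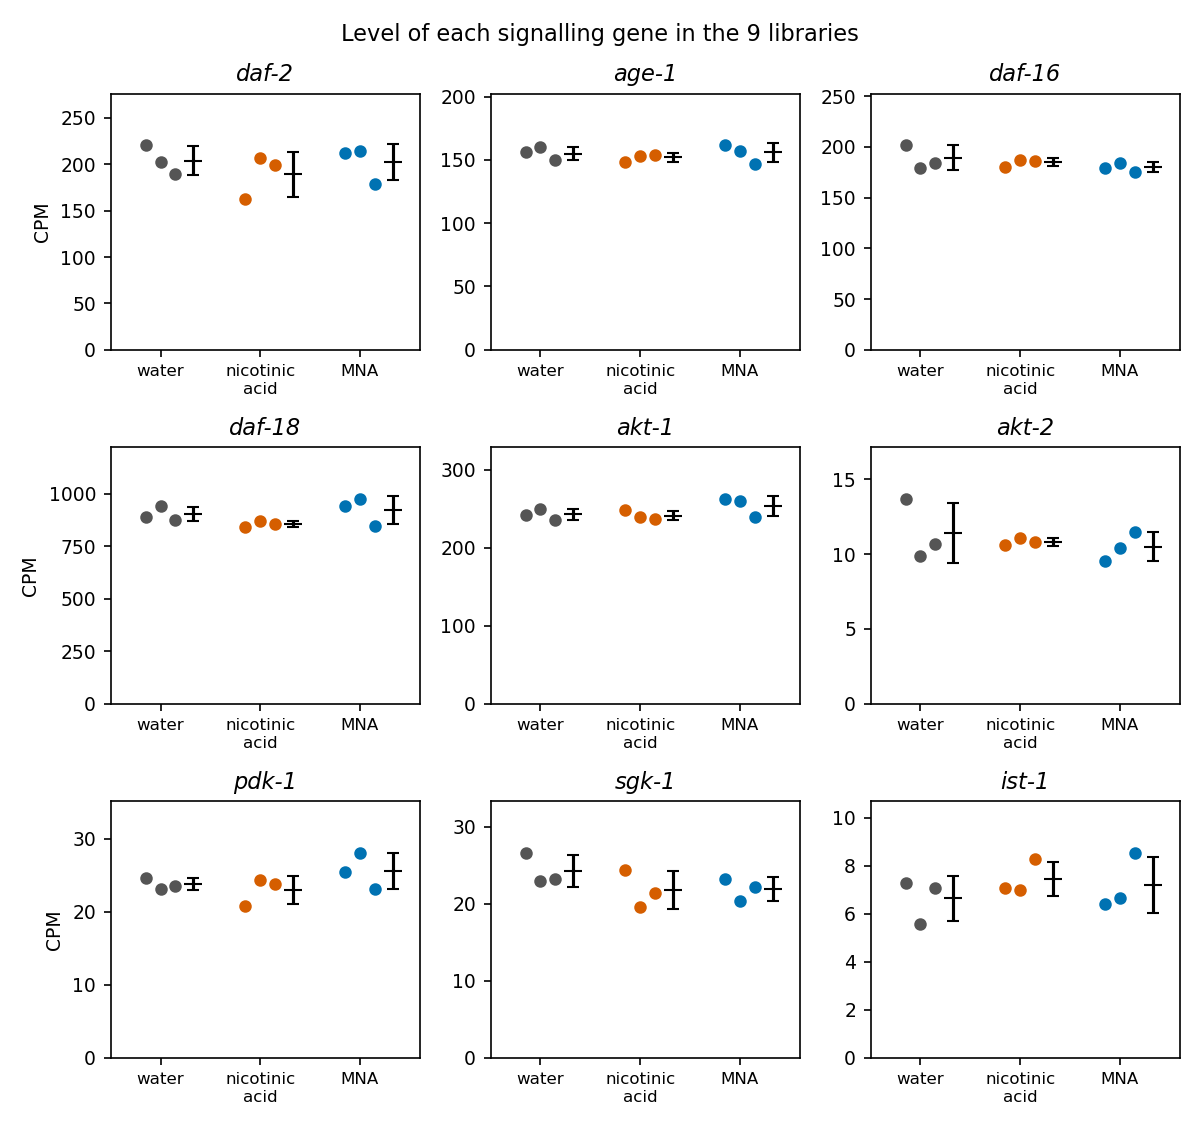
Level of each of the 9 genes in CPM (vertical axes start at 0) in the water, nicotinic acid and MNA libraries, with points for the 3 libraries of a group and a bar for the mean ± SD. Groups overlap for every gene except daf-18, whose 3 nicotinic acid libraries (843 to 869 CPM) lie below the 3 controls (877 to 943 CPM).

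Against control, 0 of 9 genes passed the edgeR test for nicotinic acid, where 5.34% of all tested genes did, and 0 of 9 for MNA, where 7.41% did. At such shares a count of 0 among 9 genes does not set them apart from other genes. At an unadjusted p below 0.05 the count was also 0 of 9 in each comparison, against 19.2% and 18.9% of all tested genes, and 0 of 9 in DESeq2 and in limma-voom. Leaving out 1 library moved 1 gene in each comparison past that unadjusted level. Without nicotinic acid replicate 1 it was sgk-1 at -0.23 (unadjusted p = 0.0296, edgeR adjusted p = 0.259), where 14.7% of all tested genes passed it, and without MNA replicate 3 it was akt-1 at 0.11 (unadjusted p = 0.0423, edgeR adjusted p = 0.228), where 20% did. The libraries of the groups did not overlap for 1 of 9 genes (daf-18) under nicotinic acid and 0 of 9 under MNA, against 22.6% and 24.6% of all tested genes. The median log2 change of the 9 genes was -0.053 for nicotinic acid, with 8 below 0 and 1 above, and 0.002 for MNA, with 4 below and 5 above. For all tested genes the median was -0.0002 and -0.0027. The median size of the change, without its sign, was 0.078 and 0.071 for the 9 genes against 0.114 and 0.11 over all tested genes. The latter were not matched for level, and daf-2, age-1, daf-16, daf-18 and akt-1 stood at percentile 89.6 to 99 of level in CPM. The smaller size is therefore not read as a trait of the 9 genes. The comparisons of nicotinic acid and of MNA share the control libraries.

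The intervals show what the libraries could and could not resolve. They reached furthest for ist-1 under nicotinic acid, up to a 1.4-fold rise, and for akt-2 under MNA, down to 0.762 of control. The narrowest, for age-1, ran from 0.909 to 1.05 of control under nicotinic acid and from 0.932 to 1.08 under MNA. No interval of the 9 genes reached a 2-fold change in either direction. The counting error alone was 8.74% of the level at the lowest ist-1 count of 131 and 0.784% at the lowest daf-18 count of 16254, while the spread within groups was 13.6% and 4.82%. The biological coefficient of variation ran from 0.0468 for age-1 to 0.118 for ist-1. In 7 of the 9 genes it was below the median of all tested genes (0.0951), which were not matched for level, and in akt-2 (0.104) and ist-1 it was above.

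**Figure D3:**
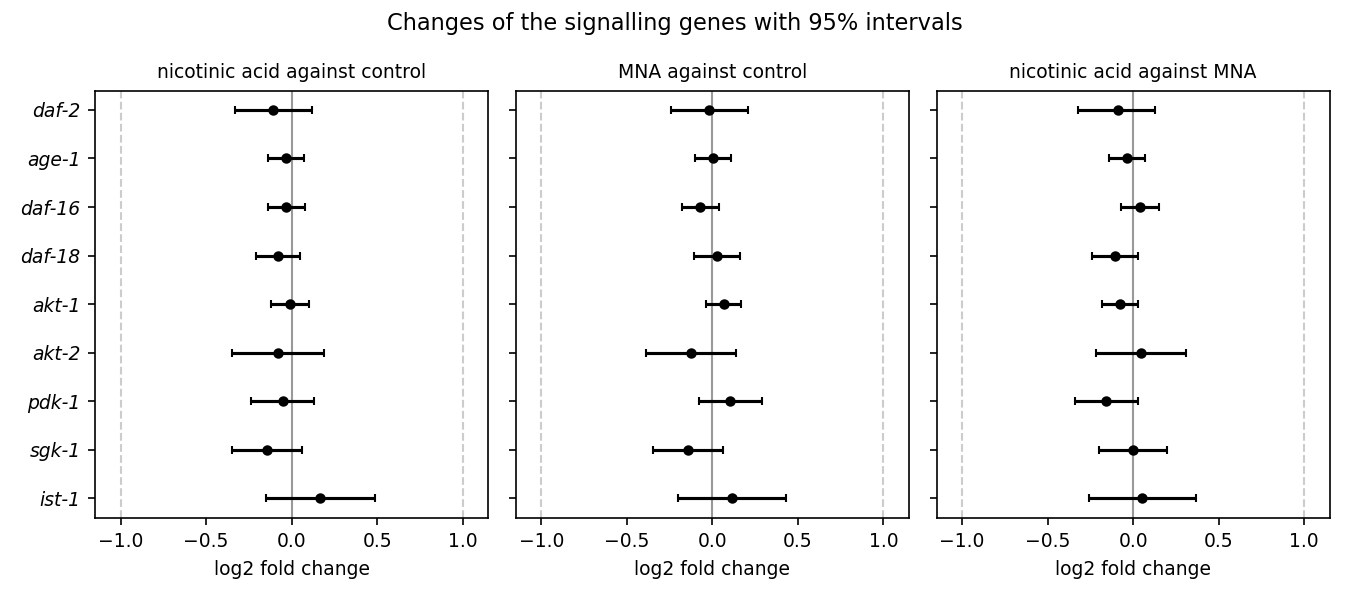
Log2 fold change of the 9 genes (points) with approximate 95% intervals derived from the edgeR test (bars) in the 3 comparisons, with dashed lines at a 2-fold change in either direction. All 27 intervals include 0 and stay inside the dashed lines, with the widest for ist-1 and the narrowest for age-1.

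Set directly against each other, and at doses that differ, nicotinic acid and MNA left 0 of 9 genes past the edgeR threshold, where 1.42% of all tested genes passed. The smallest p was that of pdk-1, with 23 ± 1.89 CPM under nicotinic acid and 25.6 ± 2.5 CPM under MNA (SD over n = 3 each, a log2 fold change of -0.16, 95% interval -0.34 to 0.03, edgeR unadjusted p = 0.0879, adjusted p = 0.462). For daf-18 the difference was -0.11 (95% interval -0.24 to 0.03, edgeR adjusted p = 0.5), for akt-1 -0.07 (95% interval -0.18 to 0.03, edgeR adjusted p = 0.577) and for daf-2 -0.09 (95% interval -0.32 to 0.13, edgeR adjusted p = 0.781). The value of daf-16 was 0.04 (95% interval -0.07 to 0.15, edgeR adjusted p = 0.818) and that of sgk-1 was 0.00 (95% interval -0.2 to 0.2, edgeR adjusted p = 0.998). The remaining 3 genes, age-1, akt-2 and ist-1, were at -0.04, 0.05 and 0.05 on the log2 scale. These intervals bound the differences and do not show that the compounds act alike. At an unadjusted p below 0.05 the count was 0 of 9 in edgeR, DESeq2 and limma-voom, against 13.6% of all tested genes in edgeR. Leaving out MNA replicate 3 was the only one of 17 alternatives that gave a count above 0. That library lay apart from its group, but so did nicotinic acid replicate 1. Without MNA replicate 3 the count was 3 of 9 in edgeR, against 17.9% of all tested genes, and the calls over all genes at an adjusted p below 0.05 went from 198 to 418. All 3 were lower under nicotinic acid, as were 9.05% of all tested genes at that level: daf-18 at -0.16 (unadjusted p = 0.0131, edgeR adjusted p = 0.151), pdk-1 at -0.23 (unadjusted p = 0.0217, edgeR adjusted p = 0.191) and akt-1 at -0.12 (unadjusted p = 0.0311, edgeR adjusted p = 0.227). In MNA replicate 3 daf-18, pdk-1, akt-1, age-1, daf-2 and daf-16 were each at their lowest of the MNA group, while ist-1 and akt-2 were at their highest.

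Ratios between genes within a library do not depend on the scaling between libraries. The phosphatase gene daf-18 was 6.72, 6.97 and 6.89 times age-1 per length in the controls, 6.73, 6.68 and 6.54 times under nicotinic acid and 6.83, 7.34 and 6.78 times under MNA. The nicotinic acid libraries lay below the MNA libraries and overlapped the controls. For akt-1 over akt-2 the ratio was 18.4, 26.4 and 23 in the controls, 24.5, 22.5 and 22.9 under nicotinic acid and 28.9, 26.1 and 21.9 under MNA, so akt-1 supplied nearly all AKT RNA in every library. The ratio of daf-16 to daf-2 ran from 1.9 in MNA replicate 1 to 2.5 in nicotinic acid replicate 1, the library with the lowest daf-2. The catalytic subunit age-1 stood at 0.718 to 0.787 of aap-1, the adaptor subunit of the same kinase, over all 9 libraries. In 15 comparisons of 5 such ratios between groups, akt-1 to sgk-1 included, the smallest two-sided exact permutation p was 0.1 (adjusted p = 0.818), which is the smallest that 3 against 3 libraries allow. The gene aap-1 was chosen for its role after its values were seen.

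Genes that work beside the route, whether partners of the kinases or regulators of DAF-16, also held no call in the main fit. This absence of calls does not set them apart from other genes. With 1 library left out, at most 1 partner passed under nicotinic acid and at most 1 regulator under MNA. In the other comparisons of these lists 0 passed. Of 19 tested partners of the kinase cascade (lipid kinases, phosphatases, TOR complex and 14-3-3 genes, among others), 0 passed the edgeR test in any of the 3 comparisons, where 5.34% of all tested genes passed for nicotinic acid, 7.41% for MNA and 1.42% between the compounds. At an unadjusted p below 0.05 there were 3 for nicotinic acid, 2 for MNA and 0 between the compounds, against 19.2%, 18.9% and 13.6% of all tested genes, and DESeq2 and limma-voom called 0. The median of these partners was -0.092 for nicotinic acid, with 1 above 0, and -0.039 for MNA, with 4 above 0. Over all tested genes it was -0.0002 and -0.0027, and the lean of the partners below 0 was not tested. The adaptor gene aap-1, for example, was at -0.04 (95% interval -0.13 to 0.05) and 0.02 (95% interval -0.07 to 0.12). Of 28 tested regulators and cofactors of DAF-16, 0 passed in any of the 3 comparisons in edgeR, DESeq2 or limma-voom, with 3, 2 and 0 at an unadjusted p below 0.05, beside the same shares of all tested genes. Their medians were -0.063 for nicotinic acid, with 6 above 0, and -0.028 for MNA, with 9 above 0, and this lean was not tested either. Among them sir-2.1, the NAD-dependent deacetylase that can act on DAF-16, was at 0.02 (95% interval -0.07 to 0.11) for nicotinic acid and -0.02 (95% interval -0.11 to 0.07) for MNA. It was named for its role after its values were seen.

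Of 10 genes for the processing and release of insulin-like peptides, 1 fell under nicotinic acid, where 3.4% of all tested genes fell. This was kpc-1, a furin-like proprotein convertase, with 29.8, 22.6 and 26.2 CPM in the controls against 14.9, 18.8 and 20 CPM under nicotinic acid (SE 0.12 for a log2 fold change of -0.55, edgeR adjusted p = 0.0192). All treated libraries were below all controls. The call was lost without control replicate 1, control replicate 3 and nicotinic acid replicate 1 in turn, when the 6 libraries were fitted alone and on RPKM (adjusted p up to 0.078). Under MNA kpc-1 had 19.6, 20.5 and 19.3 CPM, and 0 of the 10 genes passed in edgeR, with 4 at an unadjusted p below 0.05 (18.9% of all tested genes), 1 in DESeq2 and 0 in limma-voom. The neuron markers, several of which sit in this list, had 0 of 10 past the edgeR threshold under nicotinic acid and 6 at an unadjusted p below 0.05 (19.2% of all tested genes).

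A few listed targets of DAF-16 passed, in both directions, while daf-16 itself did not pass. The target lists were chosen with earlier results of these data known, so nothing is read from their counts of calls. Class I targets are induced where insulin signalling is weak. Of the 21 tested, 1 rose, 2 fell and 18 did not pass under nicotinic acid, where 1.94% of all tested genes rose and 3.4% fell. The median of the 21 was -0.226, with 6 above 0. The superoxide dismutase gene sod-3 rose from 1.12, 1.82 and 1.03 CPM in the controls to 3.21, 3.15 and 3.22 CPM, a log2 fold change of 1.27 (SE 0.24, edgeR adjusted p = 0.012). The groups did not overlap, at levels well above the floor. The lysozyme gene lys-7 fell from 380, 373 and 384 CPM to 234, 237 and 272 CPM, a log2 fold change of -0.61 (SE 0.08, edgeR adjusted p = 0.00335), and the small heat shock gene sip-1 fell slightly, with a log2 fold change of -0.23 (SE 0.06) and an edgeR adjusted p = 0.0489. The sip-1 call was lost under 11 of 17 alternatives, 8 of them each leaving out 1 library.

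Under MNA 2 of the 21 class I targets rose and 2 fell, where 3.63% of all tested genes rose and 3.78% fell, with a median of -0.038 and 8 above 0. The sphingomyelinase gene asm-2 rose from a control mean of 4.27 ± 0.547 CPM to 11 ± 2.56 CPM (SD over n = 3), a log2 fold change of 1.37 (SE 0.18, edgeR adjusted p = 0.00106), and dod-6 rose by 0.32 (SE 0.08, edgeR adjusted p = 0.0372). The gene lea-1, related to desiccation proteins of plants, fell from a control mean of 491 ± 74.1 CPM to 287 ± 8.89 CPM (SD over n = 3), a log2 fold change of -0.78 (SE 0.14, edgeR adjusted p = 0.011), and lys-7 fell by 0.35 (SE 0.08, edgeR adjusted p = 0.0254). The lea-1 call was lost with a block for replicate number and also when control replicate 3 or MNA replicate 2 was left out (adjusted p up to 0.0626). For lys-7 it was lost with that block, on RPKM and when any 1 control or MNA replicate 2 or 3 was left out (adjusted p up to 0.118), and for dod-6 under 9 of 17 alternatives.

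Class II targets are repressed where insulin signalling is weak. Of the 11 tested, 4 rose and 1 fell under MNA, where 3.63% of all tested genes rose and 3.78% fell. The rises were carried by 3 genes: dod-17, a gene known from screens downstream of DAF-16, went from 3.28, 3.76 and 4.38 CPM to 12.4, 13.4 and 10.5 CPM (SE 0.14 for a log2 fold change of 1.66, edgeR adjusted p = 4.61e-05). The glucuronosyltransferase gene ugt-16 went from 16 to 16.6 CPM in the 3 controls to 65.2, 60.3 and 39.9 CPM (SE 0.17 for a log2 fold change of 1.75, edgeR adjusted p = 0.000831). The third, dod-24, went from 22.7, 23.5 and 24.9 CPM to 80.1, 75.4 and 45.3 CPM (SE 0.21 for a log2 fold change of 1.5, edgeR adjusted p = 0.00645). All treated libraries lay above all controls for these genes, and MNA replicate 3 was the lowest of its group for each. The fourth, the intestinal peptide transporter pept-1, rose by only 0.19 (SE 0.05, edgeR adjusted p = 0.0218). That call did not hold when control replicate 1 or 3 or MNA replicate 1 or 2 was left out (adjusted p up to 0.115). In the other direction dod-23 fell by 0.62 (SE 0.10, edgeR adjusted p = 0.00696). The median of the 11 was -0.308 with 4 above 0, so it and the rises differ in sign. When the list was written, dod-17 and ugt-16 were already known to have risen in these data, so nothing is read from the count of rises.

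Under nicotinic acid 1 of the 11 class II targets rose (pept-1 at 0.21, SE 0.05, edgeR adjusted p = 0.0202) and 1 fell (dod-23 at -0.46, SE 0.10, edgeR adjusted p = 0.0339), where 1.94% of all tested genes rose and 3.4% fell. The median was -0.237. Leaving out control replicate 1 or 3 or nicotinic acid replicate 2 ended the pept-1 call (adjusted p up to 0.0732), and that of dod-23 was lost under 11 of 17 alternatives. Between the compounds, dod-17 (-1.25, SE 0.13, edgeR adjusted p = 0.00054), ugt-16 (-1.54, SE 0.17, edgeR adjusted p = 0.00256) and dod-24 (-1.95, SE 0.21, edgeR adjusted p = 0.00569) were lower under nicotinic acid, as was the class I gene asm-2 (-0.89, SE 0.18, edgeR adjusted p = 0.0273). The background share of genes lower under nicotinic acid was 1.1%, and since dod-17 and ugt-16 were listed with their rise known, nothing is read from the count of 3 of 11 class II targets. Of the 21 class I targets 1 was lower. For asm-2 the call between the compounds was lost in limma-voom, on RPKM and with nicotinic acid replicate 2 or 3 or MNA replicate 1 or 2 left out (adjusted p up to 0.179), and for dod-24 when the 6 libraries were fitted alone (0.056).

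**Figure D4:**
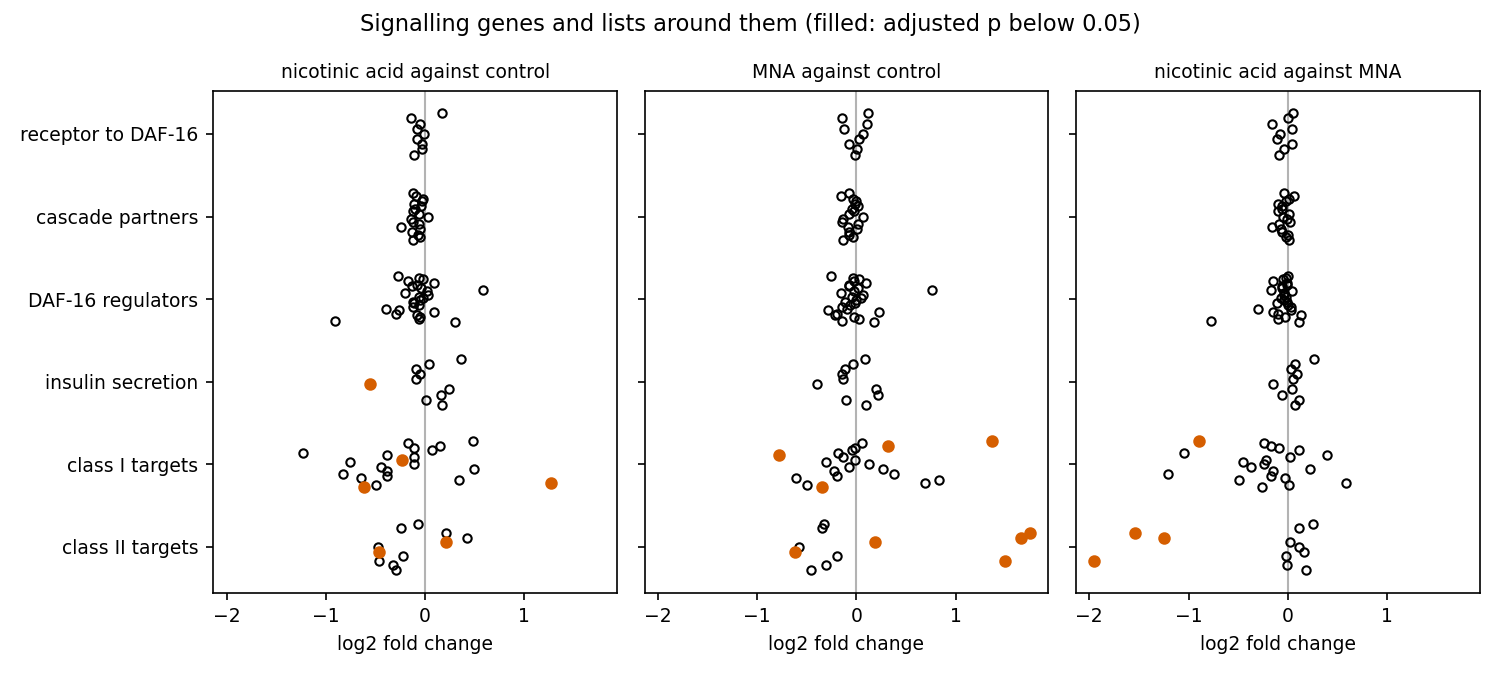
Log2 fold change of each tested gene (1 point per gene, spread vertically only for legibility) in the 9 genes from receptor to DAF-16 and in 5 lists around them, for the 3 comparisons. Filled points passed an edgeR adjusted p of 0.05, as did 5.34%, 7.41% and 1.42% of all tested genes in the 3 comparisons. The 9 signalling genes, the cascade partners and the DAF-16 regulators hold no filled point. The class II targets hold 5 under MNA, a count from which nothing is read, since dod-17 and ugt-16 were listed with their rise known.

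Over the 9 libraries, the tested genes whose log2 level was most like that of daf-2 were C13F10.4 (Pearson r = 0.981), pqn-15 (0.97) and T02G6.2 (0.961), the last at a mean of only 0.394 CPM. For daf-16 they were the transporter gene pgp-6 (0.922), K01F9.2 (0.908) and the autophagy gene atg-7 (0.898). These values are the highest of 13984 genes over 9 points that share library and depth, and they describe these libraries only.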

How the data were processed

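RNA of whole adult worms was sequenced in 9 libraries, 3 each for water control, nicotinic acid and MNA. The labels' protocols name phenol and chloroform extraction and a TruSeq RNA kit with 2 µg of total RNA. The submitters' processing notes list CASAVA, HTSeq and TopHat 1.4.1. The genome build, gene models, strand setting and any filter are not stated there, so no coordinates are printed. Counts were deposited by the authors unnormalized, as whole numbers per gene. Each deposited RPKM value was taken to be the authors' count divided by library total and a gene length, which was not checked for each library. The length implied by the 9 libraries together was 21 bases for daf-16 and akt-2 and 6907 for akt-1. It was within 10% of the annotated exon length for only 12.8% of 10146 genes. RPKM was therefore used only within genes, in an alternative fit on log2(RPKM + 0.1). Levels per length use the merged exons of Ensembl release 115 (WBcel235). In that annotation the exons of age-1, akt-1, pdk-1 and daf-16 overlap a gene on the other strand, by 192, 8, 15 and 84 bases.

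Genes were filtered with filterByExpr (minimum count 10), which kept 99.95% of all counts. A quasi-likelihood model (edgeR 4.0.16, R 4.3.3, robust, TMM factors from 0.9632 to 1.028) held all 9 libraries with a term for group. Tests were two-sided, with Benjamini-Hochberg adjustment over 13985 genes and a threshold of 0.05. CPM are scaled by TMM. The fit was tested on simulated counts, with known changes only against control. The labels do not say that replicates are separate cultures, so a p-value reflects the spread between libraries, which may be technical. The edgeR test gives no standard error or interval. SE and 95% intervals were derived from its log2 fold change and F statistic with a t quantile, and are approximate. Floors cover counting error only. Alternatives were a replicate block, 2 other scalings, no filter, DESeq2 1.42.0, limma-voom (limma 3.58.1), RPKM, the 6 libraries alone and leaving out each library. The members and lists were chosen with earlier results of these data known. Named genes were all 9 members, list genes past the threshold (at most 6 per list and comparison), and the 3 genes most like daf-2 and daf-16.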

Additional observations from a re-analysis of the deposited data

How the results depend on the processing

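In all 3 comparisons 0 of the 9 signalling genes passed under each of the 17 alternatives, and the lowest adjusted p of any of them was 0.151 (daf-18 between the compounds, without MNA replicate 3). Values of the 9 genes ran from -0.23 to 0.24 on the log2 scale over all settings, and 13 of 27 changed sign under at least 1 alternative. The signs of those 13, and the counts of the 9 genes above and below 0, are therefore not read as directions. Leaving out each library gave 0 to 0 of the 9 genes. With a replicate block, 0 of the 9 genes passed and the number of all genes called was 738 for nicotinic acid, 1056 for MNA and 285 between the compounds, against 747, 1036 and 198. Deviations of same-numbered libraries from their group means had correlations from -0.201 to 0.159. For libraries of different groups and different numbers they ran from -0.114 to 0.158. With 3 libraries per group the deviations sum to 0, so these few values depend on each other, and they do not exclude pairing. The labels do not say that a number marks a shared culture, so the main fit held no block.

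The background counts moved more. Without 1 library they ran from 254 to 758 for nicotinic acid (254 without control replicate 1, 398 without control replicate 3, 424 without nicotinic acid replicate 1). They ran from 369 to 1195 for MNA (690 and 655 without control replicate 1 and 3, 462 and 369 without MNA replicate 1 and 2). Between the compounds they ran from 76 to 418 (127, 122 and 122 without each nicotinic acid library, 86 and 76 without MNA replicate 1 and 2, 418 without MNA replicate 3). On RPKM they were 369, 637 and 107, with only the 6 libraries 388 for nicotinic acid, and between the compounds 431 with no filter and 394 in DESeq2. The cause was not tested. Depth limits ist-1 and akt-2 most, with 131 and 208 counts in their lowest libraries.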
